A study of Mus musculus with 6 samples.

Results

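The genes described here are 10 components of the machinery that moves a cell from G1 into S phase: the D-type cyclin genes Ccnd1, Ccnd2 and Ccnd3, the E-type cyclin genes Ccne1 and Ccne2, the kinase genes Cdk2, Cdk4 and Cdk6, the phosphatase gene Cdc25a and the ubiquitin ligase gene Skp2. They were taken by symbol from the deposited expression table. Each symbol stood for 1 row, so 10 of 21929 genes in the table are covered. The series asks how L929 cells, an established mouse fibroblast line, differ in their transcripts after contact with tumour cells, and its title places this in gastric cancer and in the YAP coactivator and the protease CTRB1. All 6 libraries came from L929 cells kept in co-culture and carry the same batch label. In the 3 Biotin-positive libraries the cells had interacted with the tumour cells, called MFCSTCL in the labels, which do not expand the name, and in the 3 Biotin-negative libraries they had not. How the biotin mark was set and how the cells were sorted is not given in the sources used here, nor is whether the libraries of a group are separate cultures, so the p-values below speak for the spread among these libraries, which may be technical.

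D-type cyclins are made in response to growth signals and bind the kinases CDK4 and CDK6, which begin to phosphorylate the retinoblastoma protein. Phosphorylation frees E2F transcription factors, whose targets include the E-type cyclins, and cyclin E with CDK2 completes the phosphorylation and starts DNA replication. CDC25A removes inhibitory phosphates from CDK2, and SKP2 is the substrate receptor of a ubiquitin ligase that marks the CDK inhibitor p27, the product of Cdkn1b, for degradation.

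Promoter windows, which run from 250 bases before to 50 bases after an annotated start, were found in the RefSeq table for 7 of the 10 genes, in 9 windows on GRCm38.p6. Ccnd1, Ccnd2 and Ccne2 had no entry. The windows were searched on both strands for TTCCCGC and TTGGCGC (letters of E2F sites), CACGTG (the E-box, which MYC and related factors bind), TGACTCA (AP-1), GGAATG (TEAD, the partner of YAP) and TTTGAA (the CHR element of late cell cycle genes). The 5 windows below each hold such letters, as does the first Skp2 window, which was left out. Each is the 250 bases before the start, 5′ to 3′ on the strand of the gene, with the matched letters on either strand in capitals.
Cdc25a, plus strand, chr9:109875329-109875578: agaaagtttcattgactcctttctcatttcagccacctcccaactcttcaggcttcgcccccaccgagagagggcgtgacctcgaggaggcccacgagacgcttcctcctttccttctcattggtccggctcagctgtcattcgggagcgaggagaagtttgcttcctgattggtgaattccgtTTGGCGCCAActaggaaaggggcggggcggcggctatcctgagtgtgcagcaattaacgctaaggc
Cdk2, minus strand, chr10:128705052-128705301: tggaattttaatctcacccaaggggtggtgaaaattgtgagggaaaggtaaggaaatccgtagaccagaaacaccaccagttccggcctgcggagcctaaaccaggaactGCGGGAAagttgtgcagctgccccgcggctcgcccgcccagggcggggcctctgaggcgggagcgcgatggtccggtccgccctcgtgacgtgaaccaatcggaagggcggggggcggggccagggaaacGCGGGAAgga
Cdk4, plus strand, chr10:127063285-127063534: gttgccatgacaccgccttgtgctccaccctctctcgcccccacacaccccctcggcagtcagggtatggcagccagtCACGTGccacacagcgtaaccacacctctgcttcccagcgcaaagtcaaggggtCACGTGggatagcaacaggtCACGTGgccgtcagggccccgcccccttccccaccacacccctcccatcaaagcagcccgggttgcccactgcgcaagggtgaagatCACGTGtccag
Cdk6, plus strand, chr5:3343643-3343892: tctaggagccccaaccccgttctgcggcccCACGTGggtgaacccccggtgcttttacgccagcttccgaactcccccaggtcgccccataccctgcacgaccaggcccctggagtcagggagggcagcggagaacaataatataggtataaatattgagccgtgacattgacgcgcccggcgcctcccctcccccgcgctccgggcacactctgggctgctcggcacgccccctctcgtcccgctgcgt
Ccnd3, plus strand, second window, chr17:47593217-47593466: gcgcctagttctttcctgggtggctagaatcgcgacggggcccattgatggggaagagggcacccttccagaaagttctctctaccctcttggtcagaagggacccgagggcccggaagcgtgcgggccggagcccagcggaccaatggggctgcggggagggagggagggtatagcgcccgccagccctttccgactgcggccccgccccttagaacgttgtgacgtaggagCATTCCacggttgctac

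The Cdc25a window holds TTGGCGC on both strands in 2 overlapping matches that begin 66 and 63 bases before the start, and these letters occur in 2.45% of the 32851 windows in the table. The Cdk2 window reads TTCCCGC on the opposite strand at 140 and 10 bases before the start, letters found in 4.60% of all windows. These shares, and that for Skp2 below, count windows with at least 1 match. Windows with 2 or more were not counted. The Cdk4 window holds 4 E-boxes, at 172, 118, 98 and 11 bases before the start. At least 1 E-box stands in 7.15% of all windows and at least 4 stand in 8 windows, or 0.0244%. The Cdk6 window has 1 E-box 220 bases before the start. The second Ccnd3 window has the TEAD letters 17 bases before the start, as do 14.7% of all windows somewhere in their length. The first Skp2 window, not printed here, holds the CHR letters (17.9% of all windows) 63 and 55 bases before the start. None of the 9 windows holds the AP-1 letters, which 5.20% of all windows do, and the Ccne1 window, the first Ccnd3 window and the second Skp2 window hold no match to any of these letters. These are matches of letters, not measured binding.

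Expression is given in FPKM, a fragment count divided by gene length and library size, so levels of different genes can be set side by side. Per library the table sums to 337771 to 356681 FPKM, and reads per library are unknown. Values are mean ± SD over the 3 libraries of a group, Biotin-negative first. Log2 differences are Biotin-positive minus Biotin-negative on the log2(FPKM + 1) scale, which understates the change of low genes, with a 95% confidence interval in parentheses. Adjusted p-values are from limma with Benjamini-Hochberg adjustment over the 11029 tested genes, at a threshold of 0.05. "Rose" means higher in the Biotin-positive group. All 10 members reached the 1 FPKM in 3 libraries needed for testing. Of them 9 rose, 0 fell and 1, Cdk6, did not pass. In the same fit 37.8% of all tested genes were called higher and 36.1% lower, 73.9% in all. The median log2 difference was 0.77 for the 10 members and 0.0099 for all tested genes. The groups did not overlap for any of the 10 members, with 9 higher and 1 lower. Of all tested genes 76.9% had groups without overlap, 39.1% higher and 37.8% lower. In such bulk libraries a different share of cells in a cycle phase and a different amount of transcript per cell cannot be told apart.

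**Figure D1:**
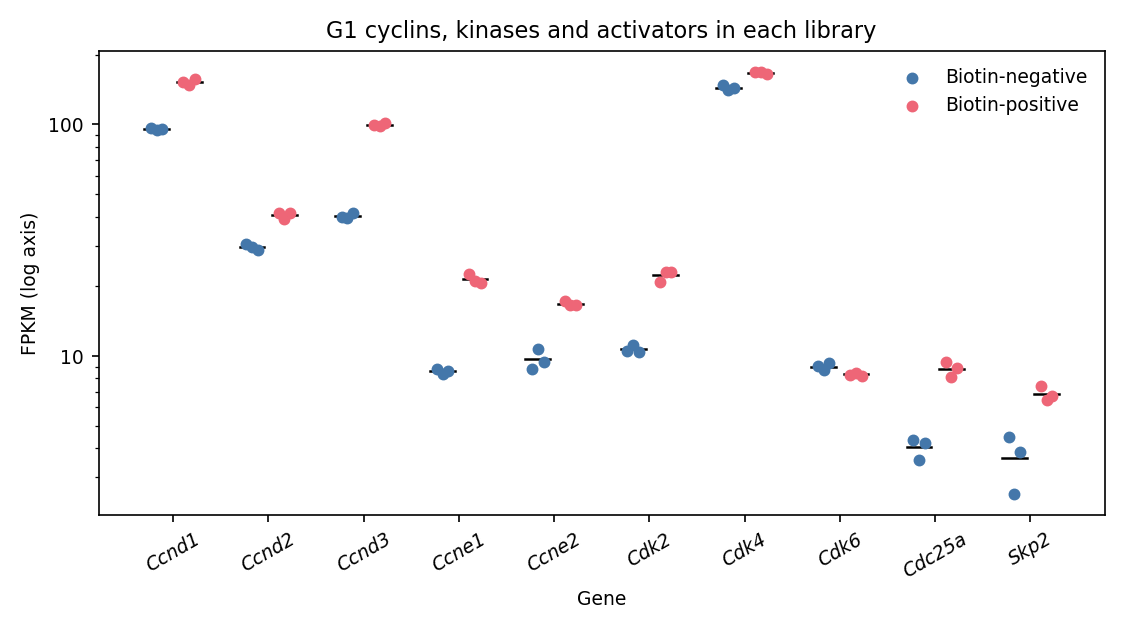
FPKM of the 10 genes on a log axis, with 1 point per library (Biotin-negative in blue, Biotin-positive in red) and a line at each group's mean. The red points lie above the blue ones for 9 genes, while those of Cdk6 lie just below, at 8.23 to 8.46 against 8.68 to 9.32 FPKM.

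The 3 D-type cyclin genes all rose, Ccnd3 by 2.47-fold, Ccnd1 by 1.59-fold and Ccnd2 by 1.38-fold. Ccnd1 (ENSMUSG00000070348, GRCm38 chr7:144929931-144939925), the D cyclin most closely tied to growth factor and adhesion signals, read 96.8, 94.6 and 95.3 FPKM in the Biotin-negative group, then 152, 148 and 157 FPKM in the Biotin-positive group. The groups lay far apart for the spread within them, 95.6 ± 1.12 against 152 ± 4.22 FPKM, with a log2 difference of 0.67 (0.60 to 0.74, adjusted p = 2.09e-07). Ccnd3 (ENSMUSG00000034165, chr17:47505051-47599691), best known from lymphocyte and muscle development, read 40.03, 39.4 and 41.6 FPKM, then 99.0, 98.6 and 101 FPKM. It had the largest log2 difference of the 10 members, 1.28 (1.21 to 1.36, adjusted p = 9.95e-09), and 3.06% of all tested genes had a difference as large or larger. Ccnd2 (ENSMUSG00000000184, chr6:127125162-127152193), a close relative of Ccnd1, went from 30.4, 29.4 and 28.6 FPKM to 41.5, 39.1 and 41.3 FPKM. Its 2 groups were 29.5 ± 0.900 and 40.7 ± 1.32 FPKM, a log2 difference of 0.45 (0.36 to 0.54, adjusted p = 1.01e-05).

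Together the D cyclin transcripts summed to 167, 163 and 166 FPKM in Biotin-negative libraries and to 293, 286 and 299 FPKM in Biotin-positive ones, 1.77 times the level. Ccnd3 supplied 24.4 ± 0.652% of the sum in the Biotin-negative group and 34.1 ± 0.387% in the Biotin-positive group. Ccnd1 remained the largest part, at 57.8 ± 0.179% and 52.1 ± 0.276%, and Ccnd2 supplied 17.8 ± 0.477% and 13.9 ± 0.260%. No library of one group reached the range of the other for any of these 3 shares, which were not tested. Within a library, log2(FPKM + 1) of Ccnd3 minus that of Ccnd1 was -1.25, -1.24 and -1.18 in Biotin-negative libraries and -0.61, -0.58 and -0.63 in Biotin-positive ones. That is a difference of 0.62 between the groups (exact permutation test, two-sided, p = 0.1, and 0.1 adjusted over the 4 gene pairs compared). This is the smallest p that 3 against 3 libraries allow, so no pair could pass 0.05. The 4 pairs were chosen after the values were seen, and the adjustment does not cover that choice.

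Of the kinase genes that D cyclins partner with, Cdk4 rose 1.16-fold and Cdk6 did not pass. Cdk4 (ENSMUSG00000006728, chr10:127063534-127067920), the main partner of the D cyclins in most cells, had the highest level of the 10 members in both groups, at 148, 140.4 and 144 FPKM and then 169, 168 and 165 FPKM. The groups did not overlap, and the log2 difference was 0.21 (0.14 to 0.28, adjusted p = 0.000231). With quantile normalization it was 0.087 (adjusted p = 0.0138), in a range of adjusted p from 0.000124 to 0.0138 over 15 alternatives. Cdk6 (ENSMUSG00000040274, chr5:3341485-3531008), the other kinase that D cyclins activate, was at 9.03, 8.68 and 9.32 FPKM, then at 8.32, 8.46 and 8.23 FPKM in Biotin-positive libraries. Every Biotin-positive value lay below every Biotin-negative one, but the log2 difference of -0.10 (-0.21 to 0.0086) did not pass (adjusted p = 0.0857), and its adjusted p lay between 0.0565 and 0.236 over the alternatives. The interval leaves room for a small fall or for no change. Cdk4 made up 94.1 ± 0.174% of the summed FPKM of both kinase genes in the Biotin-negative group and 95.2 ± 0.0508% in the Biotin-positive group.

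The D cyclin sum was 1.77 times and the sum of both kinase genes 1.14 times its Biotin-negative level, and the ratio of D cyclin FPKM to Cdk4 and Cdk6 FPKM went from 1.06, 1.10 and 1.08 to 1.65, 1.62 and 1.73. The groups are well separated in this ratio, 1.08 ± 0.0160 against 1.67 ± 0.0550, which was not tested. The ratio counts transcripts and does not measure protein complexes.

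**Figure D2:**
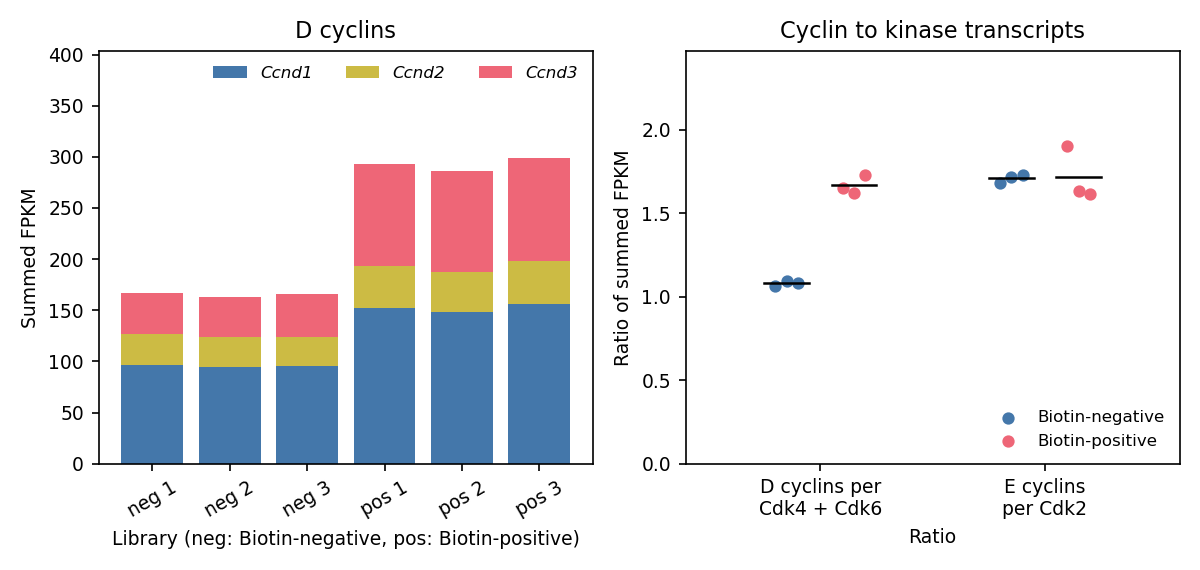
Left, stacked FPKM of Ccnd1, Ccnd2 and Ccnd3 in each library, which reach 163 to 167 in the Biotin-negative and 286 to 299 in the Biotin-positive libraries. Right, ratios of summed cyclin to kinase FPKM, with 1 point per library and a line at the mean: the D cyclin ratio separates the groups, and the E cyclin ratio overlaps at means of 1.71 and 1.72.

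The E cyclins and their kinase rose as well. Ccne1 (ENSMUSG00000002068, chr7:38097984-38107534), whose product activates CDK2 at the end of G1, stood at 8.81, 8.39 and 8.63 FPKM and then at 22.5, 21.2 and 20.8 FPKM. Its log2 difference was 1.23 (1.12 to 1.33, limma adjusted p = 7.42e-08), a 2.50-fold rise. Ccne2 (ENSMUSG00000028212, chr4:11191351-11204779), the second E cyclin, was at 8.80, 10.8 and 9.43 FPKM, then at 17.2, 16.6 and 16.6 FPKM in Biotin-positive libraries. The Biotin-negative libraries spread more for Ccne2 (9.66 ± 1.00 FPKM) than for Ccne1 (8.61 ± 0.210 FPKM), and the Ccne2 log2 difference was 0.74 (0.59 to 0.90, adjusted p = 1.38e-05). Cdk2 (ENSMUSG00000025358, chr10:128697939-128705031), the kinase of both, was at 10.5, 11.2 and 10.5 FPKM and then at 20.9, 23.1 and 23.2 FPKM. That is a 2.09-fold rise and a log2 difference of 1.00 (0.88 to 1.12, adjusted p = 4.85e-07).

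The 2 E cyclin genes were expressed at like levels in Biotin-negative libraries, where Ccne1 supplied 50.03, 43.8 and 47.8% of their sum. In Biotin-positive libraries it supplied 56.6, 56.1 and 55.6%, above each Biotin-negative library. The within-library log2 difference of Ccne1 minus Ccne2 was higher by 0.48 in the Biotin-positive group (exact permutation test, two-sided, p = 0.1, adjusted over 4 pairs 0.1). The sum of both cyclins rose 2.09-fold, as did Cdk2, so E cyclin FPKM per Cdk2 FPKM was 1.71 ± 0.0232 and 1.72 ± 0.162 with overlapping libraries. Biotin-positive replicate 1 was the high one there, at 1.902 against 1.63 and 1.61. Within libraries Cdk2 minus Cdk4 was higher by 0.79 on the log2(FPKM + 1) scale in the Biotin-positive group and Cdk4 minus Cdk6 by 0.31, each with an exact permutation p of 0.1, adjusted 0.1, in a design that can go no lower.

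The activating phosphatase and the ubiquitin ligase receptor were the 2 members of lowest level in Biotin-negative libraries. Cdc25a (ENSMUSG00000032477, chr9:109875579-109893895) was at 4.35, 3.56 and 4.21 FPKM and then at 9.39, 8.13 and 8.90 FPKM. The rise was 2.18-fold, with a log2 difference of 0.96 (0.78 to 1.14, adjusted p = 6.90e-06). Skp2 (ENSMUSG00000054115, chr15:9111985-9155425) was at 4.48, 2.54 and 3.86 FPKM and then at 7.40, 6.48 and 6.73 FPKM. Biotin-negative replicate 2 was the low library, and the SD of 27.4% of the mean in that group was the widest of the members. The log2 difference of Skp2 was 0.79 (0.46 to 1.12, adjusted p = 0.00108), and 0.61 without that library. Cdkn1b, the gene of the SKP2 substrate p27, was at 17.3, 24.2 and 18.1 FPKM and then 19.4, 16.7 and 19.2 FPKM, and did not pass (log2 difference -0.088, adjusted p = 0.511). Skp2 FPKM per Cdkn1b FPKM was 0.259, 0.105 and 0.214 in Biotin-negative libraries and 0.382, 0.387 and 0.350 in Biotin-positive ones, with no overlap and no test.

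**Figure D3:**
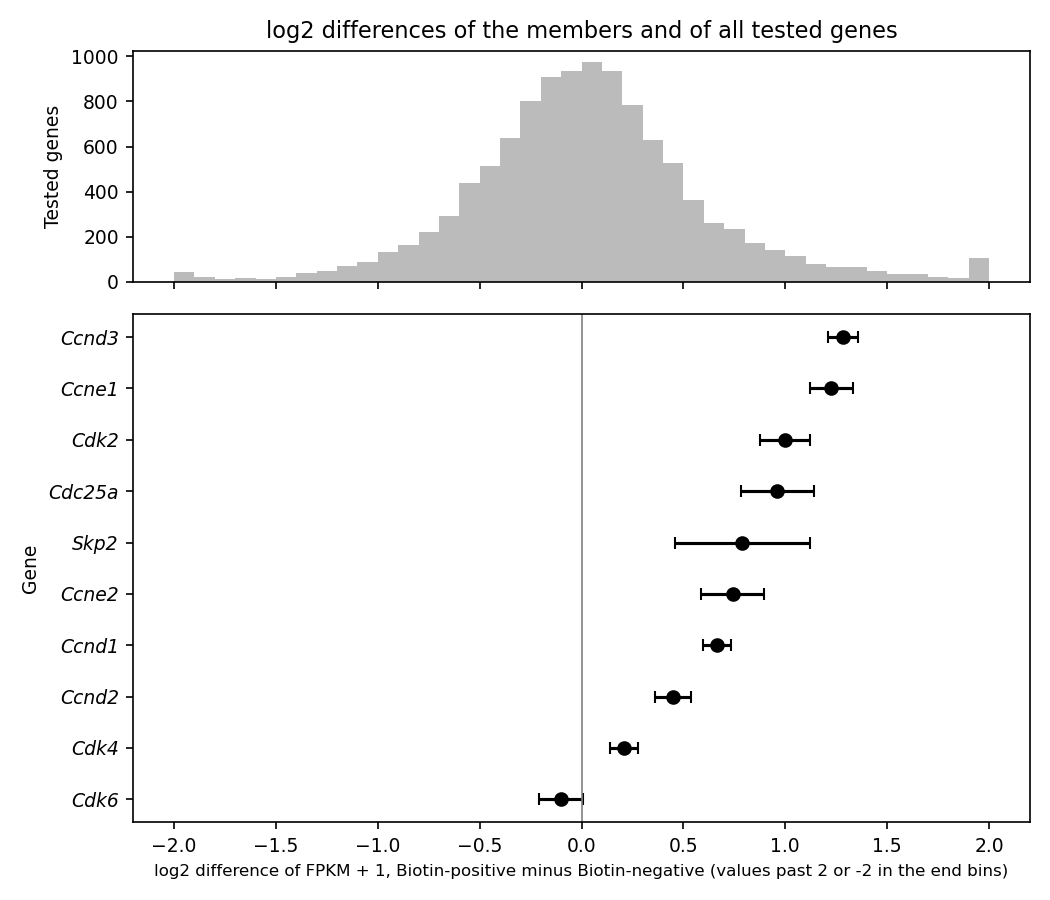
Below, the log2 difference of each member with its 95% confidence interval. Above, the number of tested genes at each log2 difference, whose median is 0.0099: Ccnd3 at 1.28 and Ccne1 at 1.23 lie in the upper tail, Cdk4 at 0.21 and Cdk6 at -0.10 near the centre.

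Against all tested genes, a difference as large as that of Ccne1 or larger was found in 3.37%, of Cdk2 in 5.31%, of Cdc25a in 5.78%, of Skp2 in 8.35%, of Ccne2 in 9.22%, of Ccnd1 in 11.1%, of Ccnd2 in 18.0% and of Cdk4 in 32.8%. The order of levels began alike in both groups, with Cdk4, Ccnd1, Ccnd3, Ccnd2 and Cdk2 from the highest down and no overlap between neighbours among these 5. Below them in the Biotin-negative group came Ccne2, Cdk6 and Ccne1, and the ranges of Cdk2 and Ccne2, of Ccne2 and Cdk6, and of Cdk6 and Ccne1 overlapped. Cdc25a and Skp2 followed and overlapped each other. In the Biotin-positive group Ccne1, which overlapped Cdk2, came before Ccne2, then Cdc25a and Cdk6, which overlapped, and Skp2 was last. The closest profiles over the 6 libraries, by Euclidean distance between mean-centred log2(FPKM + 1) values, were Foxm1 (0.0408), Ube2s (0.0449) and Ifi209 (0.0559) for Ccnd3, and Abhd5 (0.0278), Nol7 (0.0365) and Ghitm (0.0375) for Cdk6. Such a distance mostly reflects the difference between the 2 groups.

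Genes of proteins that restrain these kinases had calls in both directions, beside 37.8% higher and 36.1% lower among all tested genes. Of 10 genes of CDK inhibitors and the retinoblastoma family, 7 were tested, of which 3 rose, 1 fell and 3 did not pass, with a median log2 difference of 0.12. Cdkn2d, an inhibitor of CDK4 and CDK6, rose from 12.5, 11.4 and 14.5 FPKM to 32.4, 34.3 and 33.1 FPKM (log2 difference 1.32, limma adjusted p = 7.85e-07). Cdkn2c, which inhibits the same kinases, fell from 28.2 to 22.4 FPKM in the mean (-0.32, adjusted p = 0.000447). Cdkn1a, the gene of p21, rose by 1.14 on the log2 scale and Rbl1, the gene of the retinoblastoma relative p107, by 0.49, while Rb1, the retinoblastoma gene, averaged 6.34 and 6.37 FPKM and missed the threshold. Cdkn2b, another inhibitor of CDK4 and CDK6, and Cdkn2a, which encodes one more and the p53 activator ARF, were listed at 0 in all 6 libraries. Cdkn2c and Rb1 were named here after their values were seen, and Cdkn1b, Cdkn2a and Cdkn2b also lie outside the rule for naming partner genes.

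Most E2F genes, and all tested replication targets and later cyclins, were higher in Biotin-positive cells. Of 10 E2F and DP genes 6 rose, 1 fell and 3 did not pass (median 0.41). The repressors E2f7 and E2f8 rose from 3.68 to 11.8 and from 4.32 to 12.6 FPKM, and the activator E2f1 from 16.2 to 29.5 FPKM. All 20 replication genes known as E2F targets rose (median 0.84), among them the ribonucleotide reductase genes Rrm1, by 1.70, and Rrm2, by 1.41, and the replication helicase gene Gins2, by 1.16 on the log2 scale. All 5 genes of later cyclins and Cdk1 rose (median 1.61), with Ccnb1 at 1.86, Ccna2 at 1.77 and Ccnf at 1.61. The lists share the 6 libraries, and these counts stand beside the 37.8% of all tested genes called higher.

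Genes of enzymes that act on CDK phosphorylation and on cyclin stability were counted in the same fit, in which 37.8% of all tested genes were higher and 36.1% lower. Of 7 genes of CDK phosphorylation 4 rose, 1 fell and 2 did not pass (median 0.41). They include both activating phosphatases Cdc25b and Cdc25c, by 0.76 and 0.87, and the opposing kinase Wee1, by 1.02. Of the CDK-activating kinase genes, Ccnh fell from 34.2 to 30.6 FPKM and Cdk7 and Mnat1 did not pass, and these 3 were named after their values were seen. Of 16 genes of ubiquitin ligases and their partners 12 rose, 3 fell and 1 did not pass (median 0.29). Cks1b, the cofactor with which SKP2 binds p27, rose from 66.8 to 133 FPKM and its relative Cks2 from 30.3 to 88.6 FPKM, while Fbxo31, a receptor for cyclin D1 degradation, fell from 11.5 to 6.09 FPKM.

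Inputs to cyclin D transcription and genes linked to quiescence had calls in both directions, beside 37.8% higher and 36.1% lower among all tested genes. Of 12 mitogen-linked genes 6 rose, 5 fell and 1 did not pass (median 0.030). Egr1, an early growth response factor, fell from 41.4 to 13.3 FPKM, and the AP-1 genes Junb and Fosl1 rose from 48.3 to 83.6 and from 23.2 to 39.1 FPKM. Of 13 quiescence-linked genes 12 were tested, of which 4 rose, 4 fell and 4 did not pass (median 0.11). The antiproliferative gene Btg1 fell from 60.8 to 23.5 FPKM, and Lin54 and Lin9, subunits of the MuvB complex that also serves cycling cells, rose by 0.98 and 0.69.

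**Figure D4:**
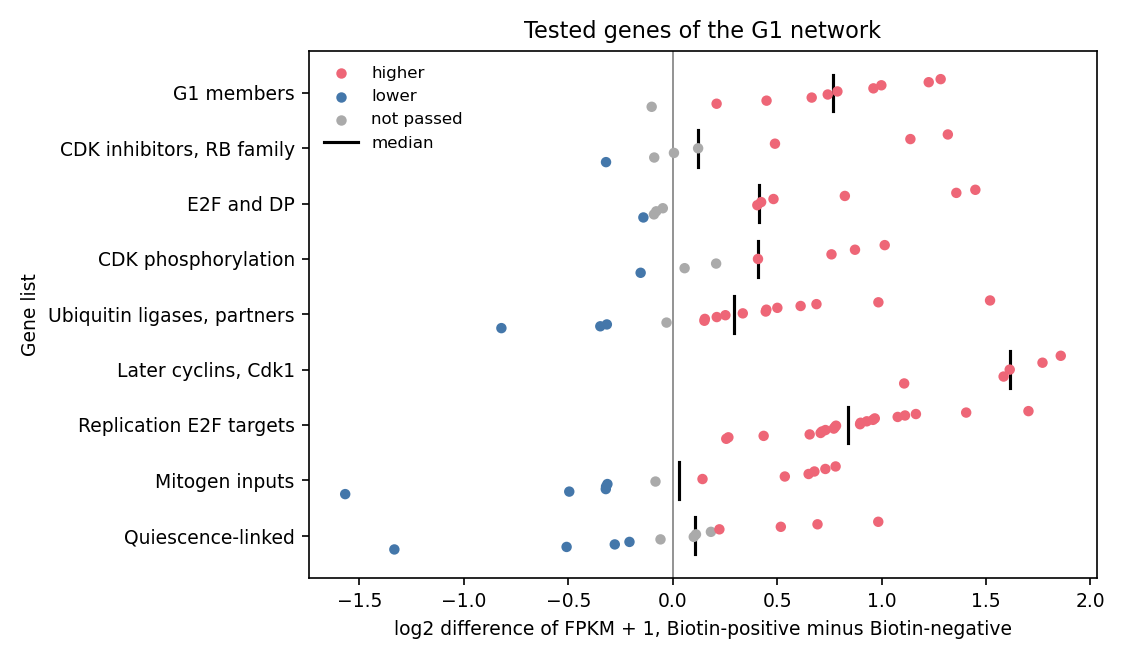
Log2 difference of every tested gene in the member list and 8 lists of its partners, with 1 point per gene (red for higher, blue for lower, grey for not passed) and a bar at each list's median. The list of later cyclins and Cdk1 has the highest median, 1.61, and the inhibitor, mitogen and quiescence lists have medians near 0. Every list except the later cyclins and the replication targets has points on both sides of 0.

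Markers of cell types were read in the same libraries. Of 14 fibroblast markers 10 were tested, of which 2 rose and 8 fell, beside 37.8% higher and 36.1% lower among all tested genes. The list summed to 4040 to 4265 FPKM in Biotin-negative and to 2688 to 2760 FPKM in Biotin-positive libraries. The fall of this sum rests on Fn1, its largest part in the Biotin-negative group, which went from a mean of 2017 to 172 FPKM. Col1a1, Col1a2, Col3a1, Col5a1, Pdgfra, Pdgfrb and Prrx1 fell as well. The largest of these falls on the log2 scale was that of Col3a1, from 208 to 58.2 FPKM. The smallest was that of Prrx1, from 10.4 to 8.45 FPKM. The 2 markers that rose were Vim, from 658 to 1418 FPKM, and S100a4, from 539 to 722 FPKM. The fibroblast markers Thy1, Dcn, Lum and Fap were under 1 FPKM in every library. Of 18 epithelial markers 2 reached testing, the keratins Krt7 and Krt8, which both rose, and the list summed to 1.78 to 2.10 FPKM in Biotin-negative and to 46.2 to 48.4 FPKM in Biotin-positive libraries. Without these 2 keratins the other 16 summed to 1.58 to 1.85 and to 1.12 to 1.71 FPKM. Cdh1 was at most 0.0227 FPKM in the Biotin-negative libraries and at 0 in each Biotin-positive one. Epcam was at most 0.0231 FPKM in any library, and Krt20 was at 0 in all 6. Of 10 leukocyte markers Lyz2 rose and Cd68 fell, and 0 of 5 endothelial markers reached testing. Ptprc, not tested, was at most 0.0354 FPKM in the Biotin-negative libraries and at 0 in the Biotin-positive ones. The part that the keratin or fibroblast marker differences have in the results for the members was not tested.

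Some members share exon bases with a gene on the opposite strand, and whether reads were counted by strand is not given in the sources used here, so reads in these stretches cannot be assigned with certainty. In the GENCODE vM21 annotation the shared part was 23.4% of the exonic bases of Ccnd1 (with LTO1), 19.7% of Cdk4 (Tspan31), 17.4% of Ccne2 (Ints8), 4.11% of Ccnd3 (Bysl) and 0.547% of Cdk2 (Pmel), and antisense transcripts touch Ccnd2 and Cdk6. These shares are of all annotated exon bases of a gene. Of the longest coding transcript alone, matches to the same opposite-strand genes covered 29.5% for Ccnd1, 31.2% for Cdk4, 20.4% for Ccne2 and 16.7% for Ccnd3. LTO1 was at 6.76, 4.14 and 4.68 FPKM and then 7.32, 7.60 and 7.05 FPKM, and rose, as did Ccnd1 (log2 difference 0.45, limma adjusted p = 0.0150). Tspan31 fell from 63.8, 62.4 and 63.7 FPKM to 54.2, 50.8 and 50.3 FPKM (limma adjusted p = 0.000112), whereas Cdk4 rose. Ints8 and Bysl did not pass. No near-identical stretch on the same strand was found for any of the 10 members in other annotated transcripts.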

How the data were processed

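RNA of 6 L929 libraries was sequenced on an Illumina NovaSeq. The submitters' processing notes name cutadapt 1.9.1, HISAT2 2.2.1, HTSeq 0.6.1 and GRCm39. The authors deposited FPKM values, 1 column per library. The program that made them and the strandedness are not given in the sources used here. Low values showed no steps of single reads, so depth is unknown. Of 21816 genes matched by identifier, 99.1% had the start and end of GENCODE vM21, which is on GRCm38, as did all 10 members, so coordinates are given as GRCm38.

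Groups came from the labels. Genes that reached 1 FPKM in 3 or more libraries were compared as log2(FPKM + 1) with limma 3.58.1 in R 4.3.3 (eBayes with a trend, two-sided). The procedure was also run on simulated data with a far smaller share of changed genes, which does not give its error rate for these libraries. Members, lists and tests were chosen with earlier results of these data known. Every member is named, with up to 3 passing genes of largest change per partner list. The 4 within-library gene pairs were chosen after the values were seen and tested with scipy 1.17.1. Skp1 was matched as Skp1a. Shared transcript sequence was searched with blastn 2.17.0 (at least 100 bases, 98% identity).

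Alternatives were pseudocounts of 0.1 and 0.5, no filter, a minimum of 5 FPKM, median-of-ratios and quantile scaling, eBayes without a trend or with a robust prior, a replicate block, and leaving out each library.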

Additional observations from a re-analysis of the deposited data

How the results depend on the processing

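Under each of 15 alternatives, 9 members were called higher and 0 lower, and all 150 member values kept their direction and their side of the threshold. With the replicate number as a block the counts were 9 and 0, and over all genes 4113 were higher and 3927 lower, against 4168 and 3985 without it. Deviations of equal-numbered libraries correlated at 0.0371, 0.0120 and 0.0143, and the labels do not tie equal numbers together. The counts over all genes ranged from 3420 to 4846 higher and from 3172 to 4374 lower. With 1 library left out at a time, the share of Ccnd3 among D cyclins was 9.44 to 10.04 percentage points higher in the Biotin-positive group. The median log2 difference over all genes was 0.0099, 0.0060 with median-of-ratios scaling and -0.0093 with quantile normalization. Depth is unknown, so the counting error of low genes such as Skp2 and Cdc25a cannot be given.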
